A study of Mus musculus with 2 samples.

Results

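The genes described here are 34 of the 39232 genes counted in testis cells, chosen by symbol from the genes that make fatty acids and triglyceride, store it in lipid droplets and release it again. All 34 were listed in both count matrices. They comprise 4 genes of fatty acid synthesis (Fasn, Acaca, Acacb, Acly), 11 of elongation and desaturation (Scd1, Scd2, Elovl1 to Elovl7, Fads1, Fads2), 8 of glycerolipid assembly (Gpam, Agpat1, Agpat2, Agpat3, Lpin1, Lpin2, Dgat1, Dgat2), 6 of the droplet (Plin2, Plin3, Plin4, Cidea, Fitm2, Bscl2), 4 of lipolysis (Pnpla2, Abhd5, Lipe, Mgll) and the regulator Srebf1. Single-cell RNA sequencing gave 2 libraries of dissociated testis cells with no replicate of either. The label of the first names a high-fat diet (HF below), and that of the second gives the tissue and leaves the diet undesignated (UD below). The study's design text describes 20 male C57 BL/6 mice that were 5 weeks old at the start and had 1 week of adaptation on maintenance feed. For the next 12 weeks 10 of them ate feed in which fat supplied 60% of the calories (D12492), while the other 10 stayed on maintenance feed. Neither label says how many mice gave a library, nor that UD came from the maintenance feed group.

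Fatty acids are built in the cytosol from acetyl-CoA, and are then lengthened and desaturated in the endoplasmic reticulum. Triglyceride is assembled on a glycerol backbone by stepwise acyl transfer, buds into droplets coated by perilipins, and is broken down again by a chain of lipases that ends with free glycerol. In the testis, Sertoli cells, which nurse the germ cells inside the tubule, take up shed germ cell remnants and hold lipid droplets, while developing germ cells make very long polyunsaturated fatty acids for their membranes. In mice, loss of the lipase gene Lipe, of the elongase gene Elovl2 or of the seipin gene Bscl2 leaves males infertile.

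HF held 201842085 counts of unique molecular identifiers (UMIs, single captured transcripts) in 12661 barcodes with a median of 9772, and UD held 207667609 in 13805 barcodes with a median of 13024. After filters and removal of doublets, 12196 HF cells and 13285 UD cells remained. They were clustered together with the 34 genes left out, and clusters were given cell classes by marker genes, so that each name below stands for a cell that is like that class by its transcripts. The labels call the cells germ cells, yet Sertoli cells (1292 in HF, 774 in UD), Leydig cells (74 in HF, 27 in UD), interstitial stroma (218 in HF, 176 in UD), myoid and endothelial cells (63 in HF, 129 in UD) and lymphoid cells (202 in HF, 60 in UD) were found beside the germ cells. Spermatogonia, early spermatocytes, elongating spermatids and the somatic classes were each 1 cluster filled by both libraries. Late spermatocytes, round spermatids and round to elongating spermatids were not: nearly every large cluster of these stages came from 1 library, so values within them compare separate clusters. A further 1665 HF cells and 1228 UD cells were left without a name. The names of 1507 barcodes occur in both libraries, but they are serial labels and not sequences, so they do not show shared cells.

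A level is given as CPM, the counts of a gene per 1000000 UMIs of all cells of a class in a library. Intervals in brackets are 95% intervals and cover counting error only. Transcripts set free from broken cells enter every droplet, and their amount was read from 13 markers of elongating spermatids. Summed over these markers, Sertoli cells held 99.4% of the level of all kept cells in HF and 63.4% in UD, Leydig cells 100.6% in HF and 33.3% in UD, and interstitial stroma 64.1% in HF and 54.9% in UD. For lymphoid cells the shares were 54.9% in HF and 43.0% in UD, for spermatogonia 44.4% in HF and 31.6% in UD, for early spermatocytes 42.2% in HF and 27.8% in UD, and for myoid and endothelial cells 28.8% in HF and 35.2% in UD. These shares times the level of a gene over all cells estimate the level that free RNA alone would leave there. The estimate can be too high, since some levels lay below it. Bscl2 in Sertoli cells of HF was at 323 CPM where the estimate was 507 CPM. The estimate can also be too low for genes of other stages. Late spermatocyte markers in Leydig cells of UD summed to 11478 CPM, against 15779 CPM over all kept cells. That share is larger than the 33.3% used. The same held in the other somatic classes of UD. In HF it was smaller than the share used in Sertoli, Leydig and lymphoid cells and larger in the other somatic classes. The part of this in the calls was not tested. A level whose interval does not lie above the estimate is called background below, which does not show that the cell itself made none of the transcript. Nor does a level above the estimate show that the cell made it. By this measure 26 of the 34 genes stood above background in spermatogonia of both libraries (51.3% of the 27007 genes with at least 20 counts over both libraries), 20 in myoid and endothelial cells (27.1%), 17 in early spermatocytes (36.4%), 14 in Sertoli cells (17.7%), 13 in interstitial stroma (20.2%), 6 in lymphoid cells (12.3%) and 5 in Leydig cells (2.38%). These classes differ in depth. Median UMIs ran from 1481 per Leydig cell to 3681 per myoid or endothelial cell in HF, and from 1356 per Sertoli cell to 3200 per myoid or endothelial cell in UD. The part of depth in these counts was not tested.

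Of the 31 genes with at least 20 counts in each library, 23 (74.2%) had their highest level in the same class of the 11 with at least 50 cells in both libraries, against 59.6% of the 22762 genes that passed the same minimum. For 9 of them (29.0% of the 31, against 21.3% of all genes) the counting interval of that level was also clear of the next class in both libraries. These were Fasn, Elovl2, Fads2, Agpat1, Agpat2, Agpat3, Lpin1, Dgat2 and Cidea. In the other 14 it was not clear in at least 1 library. Elongating spermatids held the peak of 4 genes (3.53% of all genes had theirs there in both libraries), spermatogonia of 4 (9.02%), and myoid and endothelial cells of 4 (5.88%). Early spermatocytes (11.4%), early to late spermatocytes (4.43%), round to elongating spermatids (9.99%), Sertoli cells (2.7%) and interstitial stroma (2.94%) held 2 each, and late spermatocytes held 1 (4.72%). No gene of the group peaked in round spermatids (2.7% of all genes) or in lymphoid cells (2.26%) of both libraries. The 8 genes whose highest class differed were Acacb, Scd2, Dgat1, Pnpla2, Abhd5, Fitm2, Bscl2 and Srebf1, while Scd1, Elovl3 and Plin4 were too rare to place. Across the 11 classes, the median over genes of Pearson's r between the libraries' log2(CPM + 1) levels was 0.89, a description over classes that share a library and a depth.

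**Figure D1:**
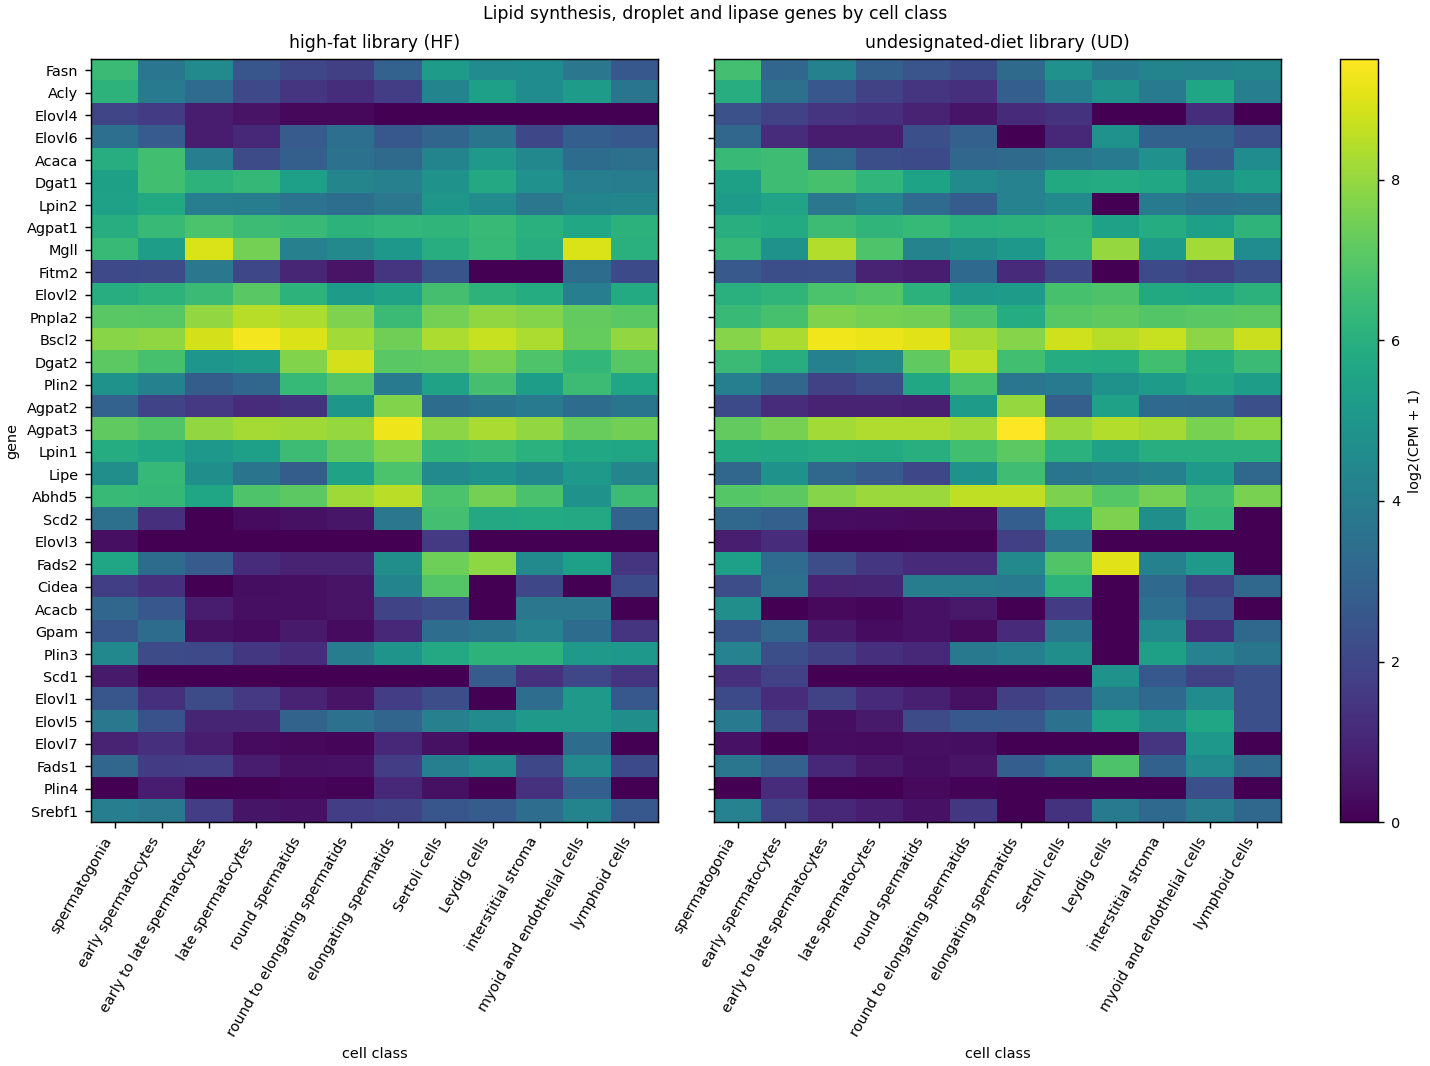
Level of each of the 34 genes (down the page) in 12 cell classes (across), as log2(CPM + 1), in HF on the left and UD on the right, with genes ordered by their highest class in HF. The same bright cells recur in both panels for Fasn in spermatogonia, Dgat2 in round to elongating spermatids, Agpat2 in elongating spermatids and Fads2 in Sertoli cells.

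Between the libraries, 1 of the 34 genes was at least 2-fold higher over all kept cells of HF and 3 were at least 2-fold lower. A gene counts here when it has at least 20 counts over both libraries and an interval of its ratio that leaves out 1, which was so for 10.9% (higher) and 7.75% (lower) of the 27007 genes tested, and with no replicates it compares these 2 libraries and not the diets. The median log2 ratio was 0.23 over the 34 genes and 0.11 over all genes. Levels over all kept cells also carry the mix of classes, which differed between the libraries. Round spermatids were 18.1% of kept cells in HF and 37.2% in UD, and late spermatocytes 27.3% in HF and 19.4% in UD. Early to late spermatocytes were 1.06% in HF and 6.91% in UD, and Sertoli cells 10.6% in HF and 5.83% in UD. The part of this mix in the ratios was not tested. The hormone-sensitive lipase gene Lipe stood at 19.2 CPM in HF and 8.90 CPM in UD, a ratio of 2.15 (2.03 to 2.28) or 1.11 on the log2 scale. Measured from the median of all genes it stood at 0.997, and with each cell weighted equally at 0.92, both short of 2-fold. The lower genes were Cidea (2.53 CPM in HF against 10.1 CPM in UD), Elovl4 (0.329 CPM in HF against 1.11 CPM in UD) and Elovl3 (9 counts in HF against 32 in UD). With each cell weighted equally the log2 ratio of Cidea was -0.16 in place of -2.00, whereas those of Elovl4 and Elovl3 stayed at least 2-fold in all 8 alternatives run. With the count minimum and the interval, Elovl4 no longer counted with cells thinned to 1000 UMIs, nor Elovl3 then or at a smallest count of 50. Pnpla2, the first lipase of the chain, was at 297 CPM in HF against 167 CPM in UD and its co-activator Abhd5 at 153 CPM in HF against 273 CPM in UD, both short of 2-fold.

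**Figure D2:**
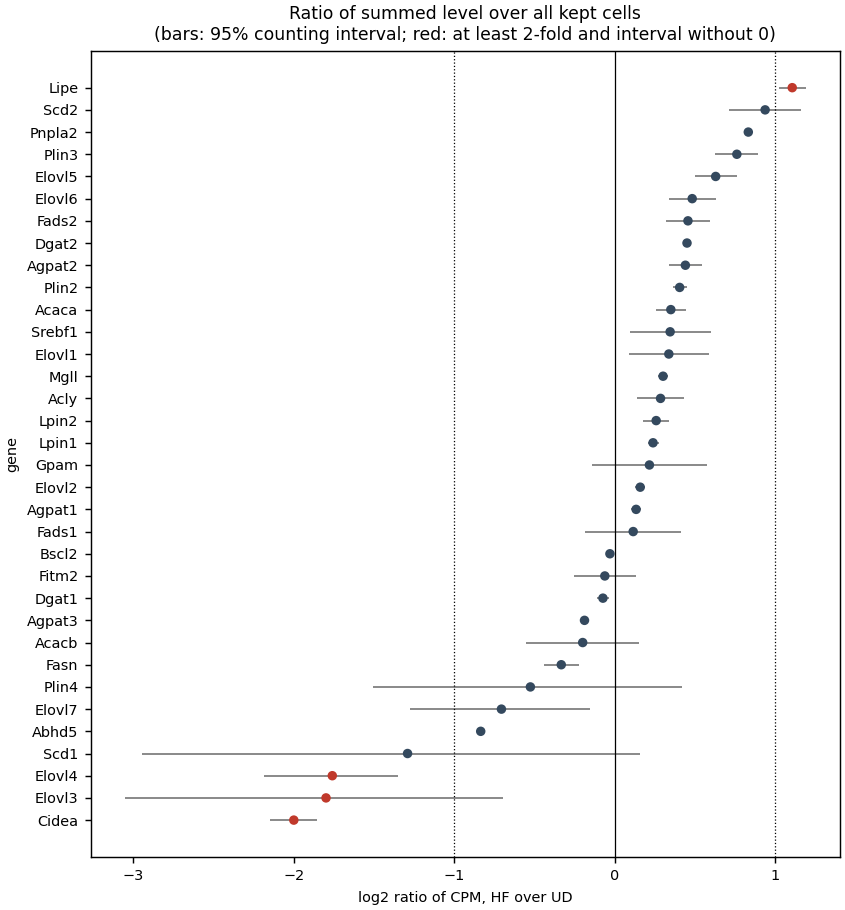
Log2 ratio of the summed level over all kept cells, HF over UD (horizontal), for each of the 34 genes (down the page), with 95% counting intervals as bars and dotted lines at 2-fold. Lipe at 1.11 lies past the upper line, and Elovl4 at -1.76, Elovl3 at -1.80 and Cidea at -2.00 past the lower one.

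Within single classes 37 pairs of a gene and a class were past 2-fold, 20 higher and 17 lower in HF. They came from 19 genes, of which 8 were higher only, 7 lower only and 4 in both directions. With ratios centred on the median of all genes of a class, 14 pairs were higher and 19 lower. That median lay more than 0.1 from 0 on the log2 scale in early to late spermatocytes (0.33), late spermatocytes (0.11), Sertoli cells (0.10), Leydig cells (0.15) and lymphoid cells (-0.12). In 16 of the 37 pairs the ratio itself stayed at least 2-fold in every alternative run, and in 33 it kept its direction. In 6 pairs the count minimum and the interval were met in every alternative too.

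By class, spermatogonia held 1 higher (7.94% of all genes) and 1 lower (5.64%) of 29 genes tested, and early spermatocytes 2 higher (7.8%) and 0 lower (3.67%) of 18. In early to late spermatocytes 3 were higher (19.5%) and 1 lower (10.3%) of 24, and in late spermatocytes 4 higher (12.7%) and 3 lower (8.14%) of 31. Round spermatids had 1 higher (11%) and 2 lower (8.67%) of 32, round to elongating spermatids 1 higher (9.68%) and 2 lower (9.13%) of 28, and elongating spermatids 0 higher (6.52%) and 0 lower (4.59%) of 19. Sertoli cells had 5 higher (12.4%) and 1 lower (4.04%) of 26. Leydig cells had 1 higher (18.7%) and 3 lower (7.39%) of 10, interstitial stroma 1 higher (5.84%) and 0 lower (3.69%) of 20, myoid and endothelial cells 0 higher (4.59%) and 3 lower (6.51%) of 20, and lymphoid cells 1 higher (8.92%) and 1 lower (11.3%) of 11. Set against all genes, these shares lay on both sides: the higher genes of Sertoli cells were 19.2% of those tested against 12.4% of all genes, and those of early to late spermatocytes 12.5% against 19.5%. Small counts carry these shares, and nothing particular to the 34 genes is read from them.

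Among the genes that make fatty acids from acetyl-CoA, Fasn, Acly and Acaca were highest in the early germ line. Fasn, whose product fatty acid synthase builds palmitate, was highest in spermatogonia (the germ cells that still divide by mitosis), with 89.0 CPM (79.1 to 99.6) in HF and 99.6 CPM (88.0 to 112) in UD. Its next class, Sertoli cells, was at 36.9 CPM in HF and 27.3 CPM in UD, and its lowest, round to elongating spermatids, at 2.48 CPM in HF and 3.33 CPM in UD. The libraries' ratio in spermatogonia was 0.893 (0.754 to 1.06), within counting error of 1. Acly, which cleaves citrate to supply cytosolic acetyl-CoA, peaked in the same cells at 69.8 CPM in HF and 59.0 CPM in UD, not clear of myoid and endothelial cells at 37.3 CPM in HF and 46.9 CPM in UD. Acaca, the acetyl-CoA carboxylase that commits carbon to synthesis, was highest in early spermatocytes, the cells that enter meiosis, at 98.3 CPM in HF and 92.7 CPM in UD, and stood at 3.61 CPM in HF and 3.92 CPM in UD in late spermatocytes. In spermatogonia it was at 59.4 CPM in HF and 83.8 CPM in UD, of which only the level in HF lay clear of early spermatocytes.

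Acacb, the carboxylase tied to mitochondria that restrains fatty acid oxidation, was the only member of this step past 2-fold between the libraries in any class. In spermatogonia it had 26 counts (7.76 CPM) in HF and 67 (25.2 CPM) in UD, a ratio of 0.308 (0.188 to 0.491), counted past 2-fold in all 12 alternatives. In late spermatocytes the order was the other way, with 26 counts (0.305 CPM) in HF against 5 (0.1001 CPM) in UD, but there the log2 ratio of 1.61 was 0.55 without the cell that held most counts in each library, and -0.56 with 4000 variable genes. The RefSeq promoter window of Fasn is shown because it is the central gene of the step, and its ratio was past 2-fold in no class. Windows run from 250 bases before to 50 after the start site, in build GRCm38.p6, 5′ to 3′ on the gene's strand, and capitals mark the letters CCAAT and GGGCGG (the GC box) on either strand.
Fasn promoter, chr11:120824498-120824797, minus strand: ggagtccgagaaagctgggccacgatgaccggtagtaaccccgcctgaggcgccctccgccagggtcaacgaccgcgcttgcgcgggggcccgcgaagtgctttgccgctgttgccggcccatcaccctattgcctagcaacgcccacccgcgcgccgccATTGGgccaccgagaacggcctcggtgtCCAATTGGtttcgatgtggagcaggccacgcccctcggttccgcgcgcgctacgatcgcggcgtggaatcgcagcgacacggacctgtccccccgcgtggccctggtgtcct
It holds 3 CCAAT matches, 2 of which overlap on opposite strands, and 0 GC boxes. Windows were matched by symbol for 27 of the 34 genes, all but Scd1, Scd2, Elovl3, Fads1, Dgat1, Dgat2 and Cidea. CCAAT was found in 14 of these 27 (51.9%) and in 41.1% of 27025 genes with a window, and the GC box in 19 (70.4%) and 38.2%. The sterol response element TCACNCCAC, where N is any base, was found in 0 of 27 and in 1.44% of all genes on either strand, and the cyclic AMP response element TGACGTCA in 1 (Elovl5) and in 2.03%. A match describes the letters in the window only.

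The elongases and desaturases divided between germ cells and somatic cells. Elovl2, which lengthens polyunsaturated chains, was highest in late spermatocytes, the cells that complete meiosis, at 132.7 CPM in HF and 126 CPM in UD, a ratio of 1.05 (1.02 to 1.08). It was clear of its next class in both libraries. Elovl4, which makes the longest of the very long chains, was rare, with a peak in spermatogonia of 2.98 CPM in HF and 4.14 CPM in UD. It was lower in HF in late spermatocytes (35 counts or 0.410 CPM in HF, against 75 counts or 1.502 CPM in UD) and in round spermatids (8 counts or 0.151 CPM in HF, against 77 counts or 0.873 CPM in UD). The ratio in round spermatids was 0.173 (0.0721 to 0.358). It counted as past 2-fold in all 12 alternatives in round spermatids and in 11 of 12 in late spermatocytes, where thinning lost it.

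Elovl6, which turns palmitate into stearate, reached 10.1 CPM in HF and 7.90 CPM in UD in spermatogonia, close to 10.1 CPM in HF and 6.55 CPM in UD in round to elongating spermatids. Elovl5, an elongase of polyunsaturated chains, was highest in myoid and endothelial cells (34.2 CPM in HF and 46.9 CPM in UD), not clear of interstitial stroma. In round to elongating spermatids Elovl5 was at 10.9 CPM in HF against 5.18 CPM in UD, a ratio of 2.096 (1.72 to 2.58) that was 0.38 on the log2 scale with doublets kept. Elovl1, of saturated very long chains, and Elovl7 had their peak in the same wall and vessel class, with 34.2 CPM in HF and 22.8 CPM in UD for Elovl1. Elovl7 there had 3 counts in HF against 24 in UD and Elovl2 5 in HF against 38 in UD, ratios of 0.290 (0.0560 to 0.956) and 0.306 (0.0939 to 0.778). The level of Elovl2 in HF, 15.5 CPM, was not above the 26.5 CPM estimated for free RNA alone, so that side of its ratio did not stand above the estimate. In UD its 50.9 CPM lay above the estimate of 29.1 CPM, which can be too low for a gene highest in late spermatocytes. Late spermatocyte markers in this class of UD summed to 7775 CPM, against 15779 CPM over all kept cells, a larger share than the 35.2% used. Thinning each cell to 1000 UMIs brought the log2 ratio of Elovl7 to 0.034. Neither gene counted as past 2-fold with thinning or at a smallest count of 50, nor did Elovl7 with doublets kept. This class mixes 2 cell types whose summed markers differed, with myoid markers at 6554 CPM in HF and 2732 CPM in UD and endothelial markers at 3529 CPM in HF and 2380 CPM in UD, and their part in these ratios was not tested.

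Fads2, the first desaturase of the polyunsaturated path, was highest in Sertoli cells among the ranked classes, with 168.8 CPM (154 to 184) in HF and 118.8 CPM (104 to 135) in UD, against 47.8 CPM in HF and 40.6 CPM in UD in spermatogonia, the next of the 11 classes. Leydig cells, too few to be ranked, held more, with 236 CPM in HF and 538 CPM in UD. Fads1, the next desaturase of that path, was at 16.2 CPM in HF and 11.2 CPM in UD in Sertoli cells and at 21.8 CPM in HF and 22.8 CPM in UD in myoid and endothelial cells, the highest of its ranked classes. In Leydig cells Fads1 stood at 23.0 CPM (4 counts) in HF and 113 CPM (8 counts) in UD, above free RNA in both libraries. Scd2, a stearoyl-CoA desaturase that makes monounsaturated fatty acids, was at 101 CPM (294 counts) in HF and 50.3 CPM (94 counts) in UD in Sertoli cells, a ratio of 2.01 (1.59 to 2.57). Its log2 ratio there was -0.045 with equal weights for all cells, and the same with cells thinned to 1000 UMIs. Scd2 was also higher in interstitial stroma (55.2 CPM in HF against 25.4 CPM in UD). Its log2 ratio there was 1.12, but 0.60 with equal cell weights, and 3 of 12 alternatives took it below 2-fold. Its sister gene Scd1, of liver and fat, had only 6 counts in HF and 15 counts in UD over all cells, and 0 in Sertoli cells of either library, where 3 counts would be 1.03 CPM in HF and 1.61 CPM in UD. Elovl3, an elongase of skin and brown fat, had 6 of its 9 counts in Sertoli cells of HF and 21 of its 32 in those of UD, a ratio of 0.184 (0.0608 to 0.471), which counted as past 2-fold in 9 of 12 alternatives.

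**Figure D3:**
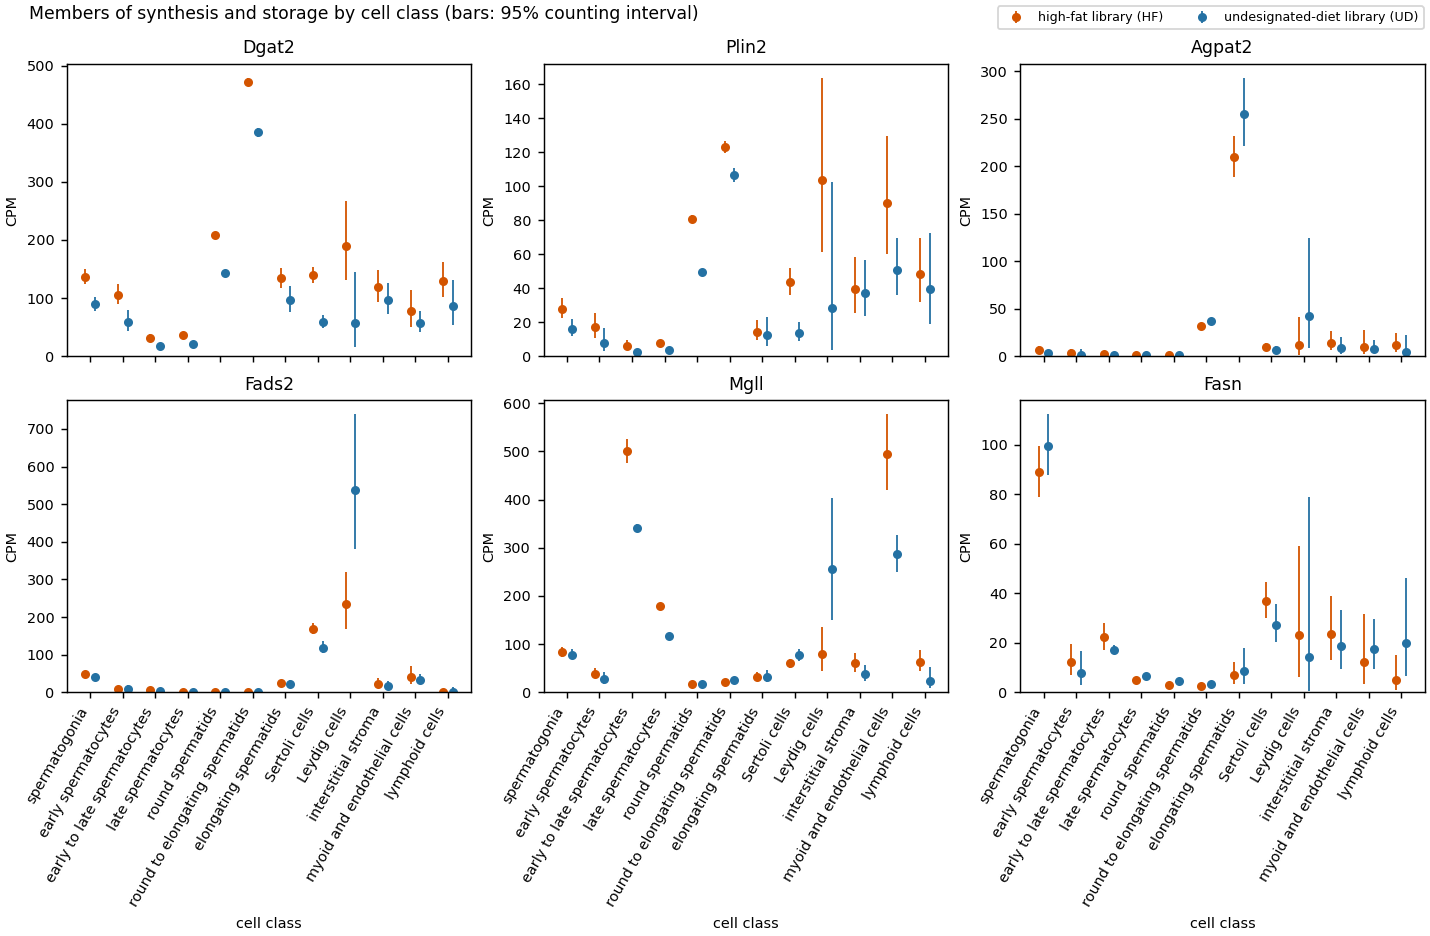
CPM of Dgat2, Plin2, Agpat2, Fads2, Mgll and Fasn (1 panel each, own scale from 0) in 12 cell classes, HF in orange and UD in blue, with 95% Poisson intervals as bars. Each panel has its high class in both colours, such as 472 CPM in HF and 385 CPM in UD for Dgat2 in round to elongating spermatids.

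Of the 8 genes of glycerolipid assembly, 4 were highest late in the germ line of both libraries (Agpat2, Agpat3, Lpin1 and Dgat2), and the other 4 peaked earlier or in interstitial stroma. Agpat2 and Agpat3, which add the second acyl chain, and Lpin1, a phosphatidate phosphatase that makes diacylglycerol, were highest in elongating spermatids, the cells that condense their nucleus into a sperm head. Agpat2 was at 209 CPM (188 to 232) in HF and 255 CPM (222 to 293) in UD, against 31.5 CPM in HF and 37.5 CPM in UD in round to elongating spermatids and 1.60 CPM in HF and 0.794 CPM in UD in round spermatids. Agpat3 was at 611 CPM in HF and 775 CPM in UD, and Lpin1 at 209.9 CPM in HF and 135 CPM in UD. All 3 were clear of their next class in both libraries. The ratio of Lpin1 was 1.55 (1.25 to 1.94) in elongating and 1.46 (1.39 to 1.53) in round to elongating spermatids.

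Dgat2, which adds the last acyl chain to form triglyceride, peaked just before, in round to elongating spermatids, at 472 CPM (465 to 479) in HF and 385 CPM (377 to 393) in UD, with 208.6 CPM in HF and 143 CPM in UD in round spermatids and 31.2 CPM in HF and 17.1 CPM in UD in early to late spermatocytes. Its ratio was above 1 in all 12 named classes, from 1.22 in interstitial stroma to 3.35 in Leydig cells, and 1.37 (1.34 to 1.39) over all cells. Of the 7 classes where free RNA was measured, Dgat2 lay above it in both libraries in 2, spermatogonia and early spermatocytes. In the other 5 at least 1 side of the ratio did not stand above the estimate. Dgat1, the other enzyme of that step, had an earlier course, with 97.6 CPM in HF and 92.7 CPM in UD in early spermatocytes and 18.8 CPM in HF and 21.9 CPM in UD in round to elongating spermatids. Agpat1, which adds the same chain as Agpat2, was the most even of the assembly genes, its highest class at 1.51 times its median class in HF and 1.33 times in UD, and ranged from 49.7 CPM in HF and 40.2 CPM in UD in myoid and endothelial cells to 110.7 CPM in HF and 90.4 CPM in UD in early to late spermatocytes. Lpin2, the second phosphatase, was at 53.4 CPM in HF and 46.3 CPM in UD in early spermatocytes, and Gpam, of the first acyl transfer at mitochondria, at 17.4 CPM in HF and 22.0 CPM in UD in interstitial stroma. Past 2-fold in this step were Agpat2 in round spermatids (1.60 CPM in HF against 0.794 CPM in UD, ratio 2.02), lost under 6 of 13 alternatives, and Dgat2 in Sertoli and Leydig cells. Dgat2 was at 139.6 CPM in HF against 58.3 CPM in UD in Sertoli cells and 189.9 CPM in HF against 56.7 CPM in UD in Leydig cells. Neither level was above free RNA in either library.

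The droplet proteins did not share 1 course. Plin2, the perilipin found on most droplets, was highest at the same stage as Dgat2, with 123 CPM (119 to 127) in HF and 106.6 CPM (102.7 to 110.7) in UD in round to elongating spermatids, 80.8 CPM in HF and 49.5 CPM in UD in round spermatids and 7.73 CPM in HF and 3.74 CPM in UD in late spermatocytes. Its peak was not clear of myoid and endothelial cells in HF. In late spermatocytes the ratio was 2.06 (1.75 to 2.44), but 0.28 on the log2 scale with doublets kept. In early to late spermatocytes it was 2.22 (1.23 to 3.83), or 0.45 on the log2 scale with each cell weighted equally. In Sertoli cells Plin2 was at 43.4 CPM in HF against 13.9 CPM in UD, yet free RNA alone would give 51.3 CPM in HF and 24.8 CPM in UD there. Plin3, a perilipin of small droplets, was highest in interstitial stroma, not clear of Sertoli cells, at 69.4 CPM in HF and 40.7 CPM in UD in stroma and 52.4 CPM in HF and 25.7 CPM in UD in Sertoli cells. Its Sertoli ratio of 2.04 (1.47 to 2.88) was 0.51 on the log2 scale with each cell weighted equally. In spermatogonia Plin3 was at 20.9 CPM in HF and 17.7 CPM in UD, above free RNA in both libraries. Bscl2, or seipin, which organises the budding of droplets, was at 645 CPM in HF and 601 CPM in UD in late spermatocytes and at 475 CPM in HF and 626 CPM in UD in early to late spermatocytes, and Plin4, a perilipin of fat and muscle, had 17 counts in HF and 25 counts in UD in all.

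Cidea, a droplet fusion protein of brown fat, was highest in Sertoli cells in both libraries, and in round and in round to elongating spermatids it had the lowest ratio of the 34 genes. In Sertoli cells it was at 124 CPM (361 counts) in HF and 69.6 CPM (130 counts) in UD, where free RNA would give 2.52 CPM in HF and 6.43 CPM in UD, and the ratio was 1.79 (1.46 to 2.20). In round spermatids it had 16 counts (0.302 CPM) in HF against 1340 counts (15.2 CPM) in UD, a ratio of 0.0199 (0.0113 to 0.0324), and in round to elongating spermatids 15 counts (0.428 CPM) in HF against 380 (14.9 CPM) in UD. Late spermatocytes had 25 counts in HF against 49 in UD, a ratio of 0.299 (0.177 to 0.493). In elongating spermatids, 1 cluster shared by both libraries, the levels were 18.5 CPM in HF and 13.6 CPM in UD, a ratio of 1.35 (0.665 to 2.98). That cluster also carried Sertoli markers, which summed to 1896 CPM in HF and 1318 CPM in UD there, to 10109 CPM in HF and 5131 CPM in UD in Sertoli cells, and to 39.0 CPM in HF and 37.4 CPM in UD in round spermatids. Their part in the Cidea level of elongating spermatids was not tested. All 3 low ratios stayed at least 2-fold in every alternative run, and the log2 ratio in round spermatids ranged from -6.21 to -4.16. With the count minimum and the interval, late spermatocytes no longer counted with thinning, nor round to elongating spermatids with 4000 variable genes.

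Since clusters of these stages belong mostly to 1 library, the few cells that crossed over were also read. In cluster 8, of round to elongating spermatids, Cidea had 1 count in 67 cells of HF and 377 in 1350 cells of UD, levels of 2.90 CPM (0.0734 to 16.1) in HF and 15.0 CPM (13.5 to 16.6) in UD. In cluster 7, of the same stage, Cidea stood at 0.404 CPM (0.221 to 0.677) in 1427 cells of HF and 8.85 CPM (1.82 to 25.9) in 33 cells of UD. The counting intervals did not overlap in cluster 7 and overlapped in cluster 8. Among round spermatids, Cidea was at 0.438 CPM in cluster 9 and 0.0866 CPM in cluster 13 of HF. It was uneven within UD, with 27.7 CPM in cluster 1, 13.0 CPM in cluster 10 and 2.08 CPM in cluster 5. Clusters 5 and 13 were named round spermatids from Ssxb genes among their top genes. Their markers scored higher for late spermatocytes, with a mean z-score of 0.75 against 0.15 in cluster 5 and 0.83 against 0.69 in cluster 13. The round spermatid values may therefore mix stages.

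Fitm2, a protein of the endoplasmic reticulum that helps droplets form, was lower in HF in round to elongating spermatids and higher in the spermatocytes before them. In round to elongating spermatids it had 14 counts (0.400 CPM) in HF and 214 (8.39 CPM) in UD, a ratio of 0.0476 (0.0256 to 0.0817). In cluster 7 it was at 0.404 CPM (0.221 to 0.677) in HF against 14.7 CPM (4.79 to 34.4) in UD, where the intervals did not overlap. In cluster 8 it had 0 counts in the 67 cells of HF (interval up to 10.7 CPM), against 209 counts or 8.31 CPM (7.22 to 9.51) in UD. There the intervals overlapped. In late spermatocytes it was at 3.13 CPM in HF against 0.941 CPM in UD, a ratio of 3.33 (2.43 to 4.64), and in early to late spermatocytes at 12.6 CPM in HF against 3.98 CPM in UD, a ratio of 3.17 (2.102 to 4.69). With 4000 variable genes these log2 ratios were 0.48 and -0.080 in place of 1.73 and 1.66, whereas that of round to elongating spermatids was -5.27 but no longer met the count minimum and the interval. Fitm2 overlaps an antisense gene, 2310001K24Rik, at 2.27 CPM in HF and 0.434 CPM in UD over all cells, and whether counting used strand is not given in the sources used here. In late spermatocytes that gene was at 2.78 CPM in HF against 0.280 CPM in UD and in round to elongating spermatids at 1.91 CPM in HF against 0.980 CPM in UD, so it was higher in HF at both stages.

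**Figure D4:**
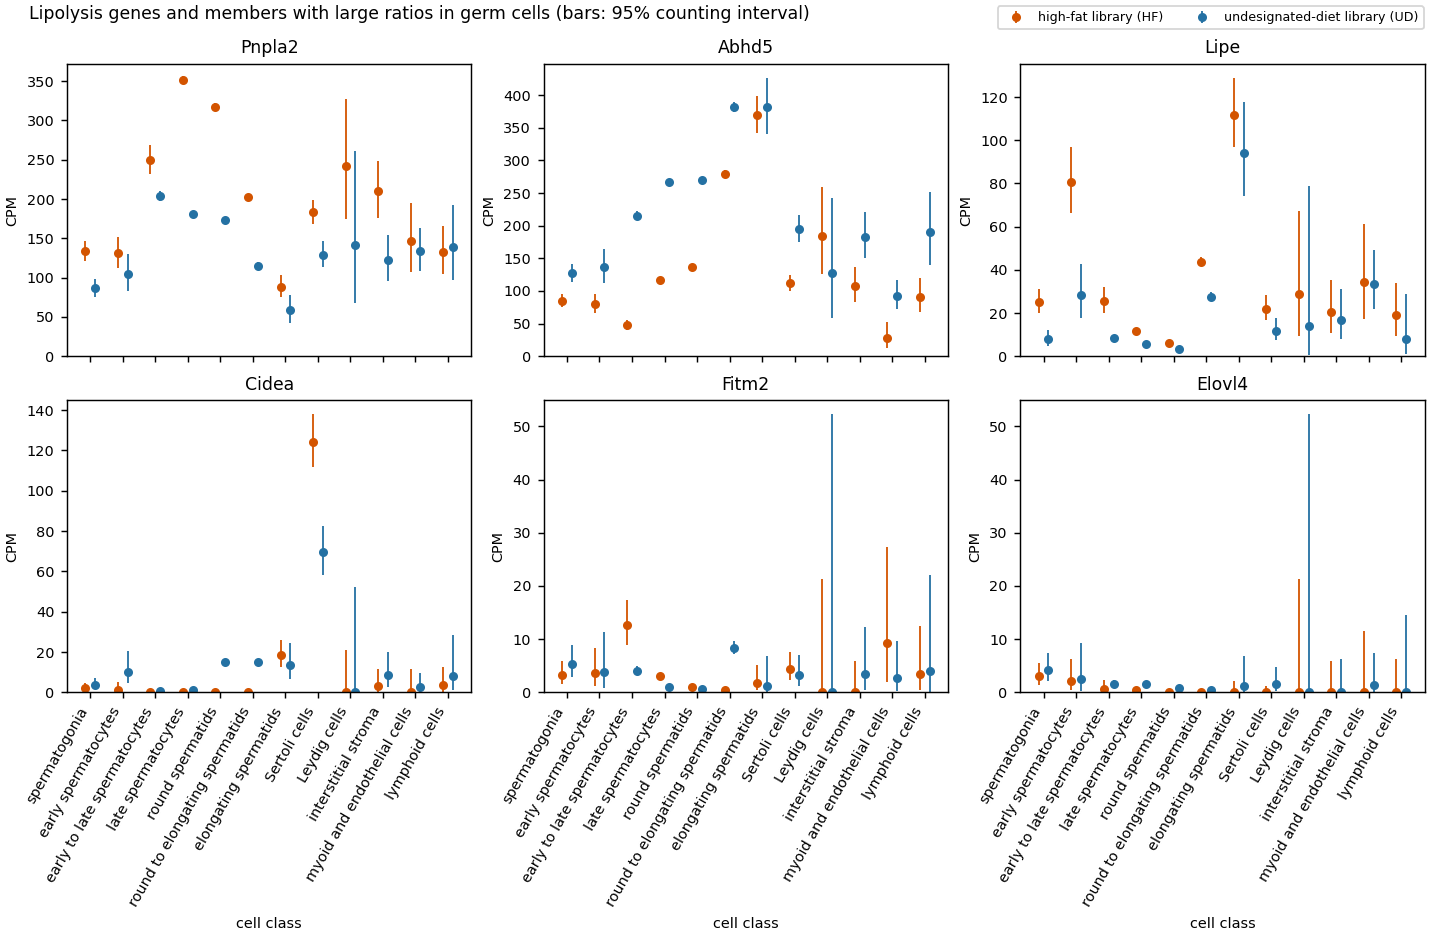
CPM of Pnpla2, Abhd5, Lipe, Cidea, Fitm2 and Elovl4 (1 panel each, own scale from 0) in 12 cell classes, HF in orange and UD in blue, with 95% Poisson intervals as bars. In late spermatocytes Pnpla2 (352 CPM in HF, 180.4 CPM in UD) and Lipe (11.6 CPM in HF, 5.67 CPM in UD) lie higher and Abhd5 (116 CPM in HF, 267 CPM in UD) lower in HF, and Cidea in round spermatids is at 0.302 CPM in HF and 15.2 CPM in UD.

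Among the genes of triglyceride breakdown, the ratios in late spermatocytes were 1.95 for Pnpla2, 2.04 for Lipe and 1.54 for Mgll, against 0.436 for the co-activator Abhd5. Pnpla2, the lipase ATGL that takes the first fatty acid from triglyceride, was at 352 CPM in HF and 180.4 CPM in UD in late spermatocytes, a ratio of 1.95 (1.91 to 2.00). It was at 317 CPM in HF against 173 CPM in UD in round spermatids and 202 CPM in HF against 115 CPM in UD in round to elongating spermatids. Its ratio was above 1 in 11 of 12 named classes and past 2-fold in none. In HF, however, Pnpla2 was not above free RNA in 6 of the 7 classes where that was measured, all but myoid and endothelial cells. On the HF side those levels were thus not told apart from free RNA. In Sertoli cells of HF the estimate, 296 CPM, was above the 183 CPM found, so it was too high for Pnpla2 there. Abhd5, which binds and activates ATGL, had a ratio under 1 in 11 of 12 named classes. The exception was Leydig cells, at 184 CPM in HF and 127.5 CPM in UD, not above free RNA in either library. It was at 116 CPM in HF against 267 CPM in UD in late spermatocytes, a ratio of 0.436 (0.425 to 0.448), counted past 2-fold in all 12 alternatives, with a range of -1.31 to -1.14 on the log2 scale.

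In round spermatids Abhd5 was at 137 CPM in HF against 269.8 CPM in UD, a ratio of 0.509 (0.495 to 0.522), just short of 2-fold, and in elongating spermatids the libraries were close, with 369.7 CPM in HF against 382 CPM in UD and a ratio of 0.968 (0.844 to 1.11). In early to late spermatocytes it was at 47.1 CPM in HF against 216 CPM in UD, but this log2 ratio of -2.20 was -0.16 with 4000 variable genes. That class is cluster 12 alone, which held cells of both libraries. Cluster 14, of late spermatocytes, held cells of both too. Abhd5 in cluster 14 was at 98.3 CPM (88.3 to 109) in HF against 239 CPM (231 to 248) in UD. Cluster 14 held Pnpla2 at 239.6 CPM (224 to 256) in HF against 136 CPM (130.1 to 143) in UD. Abhd5 was also past 2-fold lower in myoid and endothelial cells, at 28.0 CPM in HF against 92.4 CPM in UD, not above free RNA in either library. In lymphoid cells it was past 2-fold lower too, at 91.1 CPM in HF against 189.8 CPM in UD. There 10 of 12 alternatives lost this. Only the level in UD lay above the free RNA estimate, 117 CPM, which can be too low there. Late spermatocyte markers in lymphoid cells of UD summed to 12465 CPM, against 15779 CPM over all kept cells, a larger share than the 43.0% used. Abhd5 overlaps the antisense gene A730085K08Rik, which stood at 0.767 CPM in HF and 2.55 CPM in UD over all cells. In late spermatocytes the antisense gene ran against Abhd5, with 0.786 CPM in HF and 0.320 CPM in UD, and in round spermatids with it, at 0.963 CPM in HF and 2.02 CPM in UD.

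Lipe, the hormone-sensitive lipase that acts on diacylglycerol and on sterol esters, was highest in elongating spermatids, at 112 CPM (96.7 to 129) in HF and 94.2 CPM (74.2 to 118) in UD, a ratio of 1.19 (0.907 to 1.57). Its level in HF was not clear of early spermatocytes. Early in the germ line the libraries were further apart. In early spermatocytes, a cluster shared by both libraries, it was at 80.5 CPM (113 counts) in HF against 28.3 CPM (22 counts) in UD, a ratio of 2.84 (1.79 to 4.71). In spermatogonia, also 1 shared cluster, it was at 25.1 CPM (84 counts) in HF against 7.90 CPM (21 counts) in UD, a ratio of 3.18 (1.95 to 5.40). Both levels lay above free RNA in both libraries, and both ratios counted as past 2-fold in all 12 alternatives. In late spermatocytes the ratio was 2.04 (1.79 to 2.34), but 0.73 on the log2 scale with each cell weighted equally, and in early to late spermatocytes 3.099 (2.34 to 4.07), but 0.11 with 4000 variable genes. The antisense gene 4732471J01Rik that overlaps Lipe was at 147 CPM in HF against 188 CPM in UD in early spermatocytes, above Lipe in both libraries. In spermatogonia it was at 21.5 CPM in HF against 19.2 CPM in UD. Whether reads of this gene were counted for Lipe was not tested.

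Mgll, which frees the last fatty acid from monoacylglycerol, was highest in early to late spermatocytes, at 501 CPM in HF and 341 CPM in UD, beside myoid and endothelial cells at 494 CPM in HF and 286 CPM in UD. Round spermatids, by contrast, held 16.7 CPM in HF and 18.1 CPM in UD. The promoter windows of the 3 lipolysis genes that stood apart between the libraries in spermatocytes are shown side by side, with the same marking as for Fasn.
Pnpla2 promoter, chr7:141454938-141455237, plus strand: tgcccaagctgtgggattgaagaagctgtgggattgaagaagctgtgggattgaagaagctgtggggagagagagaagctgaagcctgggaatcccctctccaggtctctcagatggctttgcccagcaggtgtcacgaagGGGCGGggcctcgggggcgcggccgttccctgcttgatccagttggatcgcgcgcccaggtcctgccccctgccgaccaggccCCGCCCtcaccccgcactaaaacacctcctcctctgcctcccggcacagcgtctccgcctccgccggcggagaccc
Abhd5 promoter, chr9:122351366-122351665, plus strand: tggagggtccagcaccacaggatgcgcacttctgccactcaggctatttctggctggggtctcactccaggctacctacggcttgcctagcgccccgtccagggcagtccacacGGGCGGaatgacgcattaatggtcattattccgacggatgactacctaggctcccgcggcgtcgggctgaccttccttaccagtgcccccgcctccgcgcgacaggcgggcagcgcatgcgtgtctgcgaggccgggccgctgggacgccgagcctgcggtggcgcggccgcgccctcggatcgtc
Lipe first promoter, chr7:25395938-25396237, minus strand: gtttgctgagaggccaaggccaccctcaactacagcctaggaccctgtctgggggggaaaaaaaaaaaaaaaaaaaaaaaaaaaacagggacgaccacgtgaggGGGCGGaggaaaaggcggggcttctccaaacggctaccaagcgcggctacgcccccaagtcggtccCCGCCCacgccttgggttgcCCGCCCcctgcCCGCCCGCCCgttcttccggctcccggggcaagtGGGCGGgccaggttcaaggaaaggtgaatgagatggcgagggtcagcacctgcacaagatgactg
Lipe second promoter, chr7:25390063-25390362, minus strand: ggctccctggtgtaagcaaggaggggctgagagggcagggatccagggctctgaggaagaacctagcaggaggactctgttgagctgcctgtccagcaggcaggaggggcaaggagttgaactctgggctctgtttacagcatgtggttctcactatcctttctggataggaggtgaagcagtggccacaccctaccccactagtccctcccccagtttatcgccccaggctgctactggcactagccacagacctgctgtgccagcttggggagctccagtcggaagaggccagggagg
Pnpla2 holds 2 GC boxes, Abhd5 holds 1, and the upstream window of Lipe holds 6, while its second window holds 0, and none of the 4 holds CCAAT. Lipe has 2 windows because it has more than 1 start site in RefSeq, and the counts do not say which was used.

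Several differences in somatic cells rest on few counts or lie at the level of free RNA. Of the 20 pairs past 2-fold in all classes where free RNA was measured, 10 lay above it in both libraries, 5 in 1 and 5 in neither. The 20 include germ cell pairs, Acacb and Lipe in spermatogonia and Lipe and Srebf1 in early spermatocytes, each above it in at least 1 library. The 5 in neither were all in somatic classes. In Sertoli cells, Scd2, Plin3 and Elovl3 lay above it in both, Elovl6 (22 counts in HF against 2 in UD, a ratio of 7.08 with an interval of 1.74 to 62.1) only in HF, and Dgat2 and Plin2 in neither. Sertoli markers themselves, summed over 16 genes, were at 10109 CPM in HF and 5131 CPM in UD in these cells, and their part in the Sertoli ratios was not tested. Leydig cells, the makers of testosterone, had Fads2 at 236 CPM (41 counts) in HF against 538 CPM (38 counts) in UD, a ratio of 0.438 (0.275 to 0.700), Scd2 at 9 counts in HF against 14 in UD, and Mgll at 14 counts in HF against 18 in UD. The ratio of Scd2 was 0.261 (0.0997 to 0.648) and that of Mgll 0.316 (0.145 to 0.672). With thinning Fads2 came to -0.62 on the log2 scale. Of 11 alternatives, 3 no longer counted Fads2, 3 Scd2 and 2 Mgll. The Leydig level of Mgll was 80.6 CPM in HF, not above the 103 CPM that free RNA alone would give, and 255 CPM in UD, above it. These rest on 74 cells of HF and 27 of UD, whose 8 Leydig markers summed to 1721 CPM in HF and 6093 CPM in UD. In lymphoid cells Mgll had 37 counts in HF against 6 in UD, not above free RNA, in a class whose 8 macrophage markers summed to 309 CPM in HF and 75.1 CPM in UD, with 1 of them at 0 in HF and 3 in UD. Adipocyte markers were read too, and over all cells Adipoq was at 31.8 CPM in HF and 26.2 CPM in UD and Retn at 19.6 CPM in HF and 15.4 CPM in UD, while Plin1 (0.302 CPM in HF and 0.358 CPM in UD), Cidec (0.417 CPM in HF and 0.404 CPM in UD), Fabp4 (0.172 CPM in HF and 0.383 CPM in UD) and Lep (11 counts in HF and 4 counts in UD) were low. No cluster was named adipocytes.

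**Figure D5:**
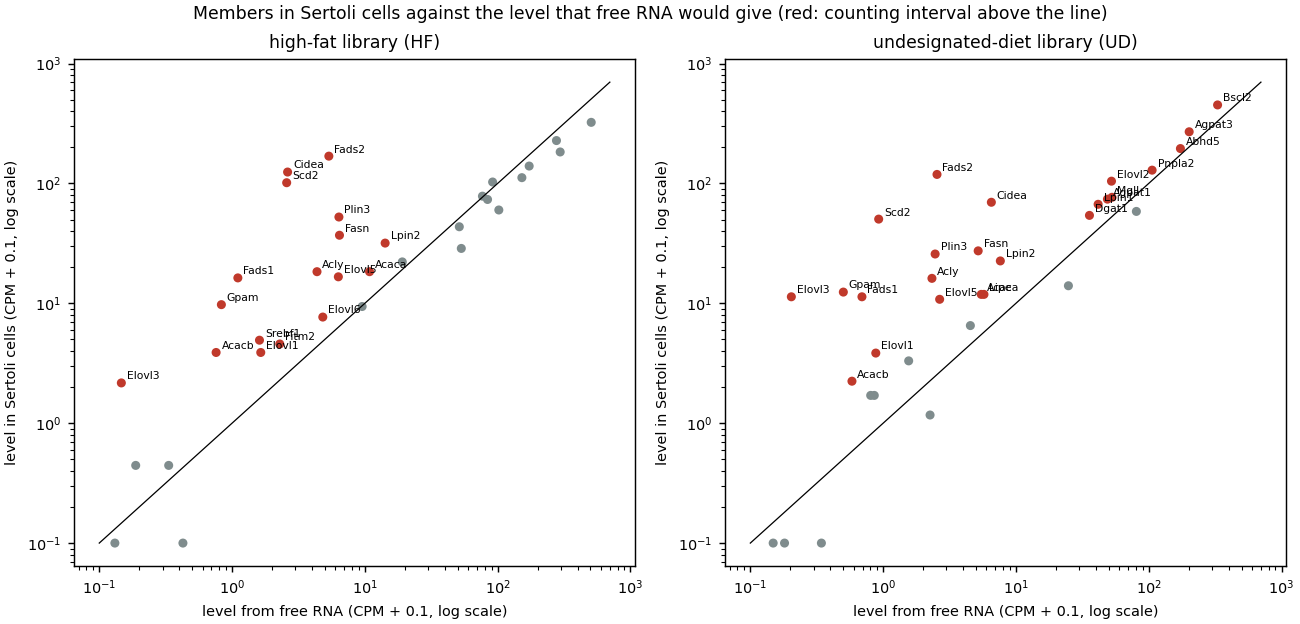
Level of the 34 genes in Sertoli cells (vertical, CPM + 0.1, log scale) against the level estimated for free RNA alone (horizontal, CPM + 0.1, log scale), HF on the left and UD on the right, with red points where the counting interval lies above the line of equality. Fads2, Cidea and Scd2 stand far above the line in both panels, and Dgat2 and Plin2 lie below it in both.

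Srebf1, the transcription factor that drives fatty acid synthesis genes, was at 15.5 CPM in HF and 17.7 CPM in UD in spermatogonia, a ratio of 0.878 (0.581 to 1.33). In early spermatocytes it had 18 counts in HF against 2 in UD, a ratio of 4.98 (1.19 to 44.2), and only the level in HF lay above free RNA. It counted as past 2-fold in 8 of 12 alternatives. Around the 34 genes, 64 further genes of the same pathways were measured over all kept cells, whose mix of classes differed between the libraries. None of 10 tested genes of acyl-CoA supply (such as Me1, at 103 CPM in HF and 88.8 CPM in UD) and none of 11 of the elongation cycle was past 2-fold, against 10.9% (higher) and 7.75% (lower) of all genes. Among 11 other acyltransferases and phosphatases 1 was lower, Mogat1, a monoacylglycerol acyltransferase, at 1.502 CPM in HF against 5.37 CPM in UD. Of 15 other droplet genes and lipases 1 was higher, G0s2, an inhibitor of ATGL, at 0.819 CPM in HF against 0.281 CPM in UD, with its highest level in interstitial stroma (155 CPM in HF and 45.8 CPM in UD). Of 15 regulators 3 were higher (10.9% of all genes) and 0 lower (7.75%): Mlxipl, a glucose-responsive transcription factor (1.69 CPM in HF against 0.368 CPM in UD), Insig1, which holds back Srebf processing (1.97 CPM in HF against 0.843 CPM in UD), and Ppard, a nuclear receptor for fatty acids (0.834 CPM in HF against 0.378 CPM in UD). In spermatogonia Mlxipl was at 77.0 CPM in HF against 16.2 CPM in UD.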

How the data were processed

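Testis cells of 2 libraries, 1 labelled high-fat (HF) and 1 with undesignated diet (UD), were dissociated with collagenase and DNase and captured on the DNBelab C droplet system, per the labels' protocols. The deposited values are UMI counts per gene and cell barcode that the authors had not normalized, written by PISA 1.0 per the file headers, and the submitters' processing notes also list Cell Ranger 2.1.1. For the aligner, genome build, strand of counting and any earlier cell filter, the answer is not given in the sources used here. Gene identifiers of the 34 genes all matched GENCODE M21.

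Barcodes with under 500 UMIs, under 250 genes or over 20% mitochondrial UMIs (3 cells of HF and 2 of UD) and doublets called by Scrublet at an expected 6% (3.65% of HF and 3.75% of UD) were left out. The rest were scaled to 10000 UMIs, logged and clustered together with scanpy 1.11.5 (Python 3.11.15) without batch integration, on 2000 variable genes, 50 principal components and 20 neighbours, at Leiden resolution 1, which gave 23 clusters. A cluster took the class with at least 2 markers among its top 10 genes by fold, or else the class whose markers had the highest mean z-score, or a between class where neighbouring stages scored within 0.3. This naming rule was set after the clusters had been seen, and 3 shallow clusters stayed unnamed.

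Counts were summed per library and class, divided by the class total and given as CPM with exact 95% Poisson intervals, and ratios have exact conditional binomial intervals. PCR and capture effects lie outside such intervals. A ratio was counted past 2-fold when it was at least 2 or at most 0.5, its interval left out 1, and both libraries together held at least 20 counts, computed over all genes. No p-value was computed, since each group is 1 library. Steps were tested on simulated counts. Alternatives changed the depth filter, doublets, clustering, cell weights, thinning, centring, the smallest count and the fold. The 34 genes and the other gene lists were chosen with earlier results of these data known. Every gene past 2-fold in a class is named with its values, and the rest are given by level or by count. Promoter windows are RefSeq's for GRCm38.p6.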

Additional observations from a re-analysis of the deposited data

Results flagged for a closer look

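The genes below were past 2-fold in opposite directions in 2 cell classes, as differences between log2 ratios of HF over UD. None of these differences was tested, since each group is 1 library. Fitm2 differed by 6.05 between early to late spermatocytes (1.66) and round to elongating spermatids (-4.39), and by 6.13 between late spermatocytes (1.73) and round to elongating spermatids. Acacb differed by 3.31 between late spermatocytes (1.61) and spermatogonia (-1.70). Scd2 stood 2.95 apart between Sertoli cells (1.01) and Leydig cells (-1.94), and 3.06 apart between interstitial stroma (1.12) and Leydig cells. Mgll stood 3.08 apart between lymphoid cells (1.42) and Leydig cells (-1.66). Leydig cells numbered 74 in HF and 27 in UD, the Leydig level of Mgll was above free RNA in UD but not in HF, and its lymphoid level in neither library.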

How the results depend on the processing

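Among 37 pairs of gene and class past 2-fold, the number was 59 with each library clustered on its own, 20 with each cell thinned to 1000 UMIs and 79 at a fold of 1.5. It was 38 with cluster 5 left out of the round spermatids. Over all kept cells, the 4 genes became 10 at a fold of 1.5. With thinning none of the 4 (Lipe, Cidea, Elovl4 and Elovl3) still counted, and 1 other gene did, higher in HF. Genes with the same highest class in both libraries numbered 23 of 31, and 19 to 24 of 31 under the alternatives that left 31 to rank, 16 of 27 with thinning and 22 of 30 at a smallest count of 50. Of 461 recomputed values for 41 named ratios, 401 moved by less than their counting interval, 55 moved by more and 5 changed sign. With 4000 variable genes the log2 ratio of Fitm2 in early to late spermatocytes was -0.080 and that of Acacb in late spermatocytes -0.56. Scd2 in Sertoli cells came to -0.045 both with equal cell weights and with thinning, and Elovl7 in myoid and endothelial cells to 0.034 with thinning. The cause was not tested. Classes made of separate clusters in each library were late spermatocytes, round spermatids and round to elongating spermatids. Depth limits rare genes, with 3 counts worth 1.03 CPM in Sertoli cells of HF and 1.61 CPM in UD. No paired analysis was possible because each group is 1 library and no label ties its cells to those of the other.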
